A study of Mus musculus with 8 samples.

Results

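The genes described here make, sense and move cholesterol. They are 30 genes, listed by name, of 35087 gene-named rows: 18 that encode enzymes of cholesterol synthesis, 5 of sterol sensing, and 7 of sterol uptake and handling. All 30 were measured in all 8 libraries, and all 30 passed the filter on low counts that left 15102 genes for testing. RNA was sequenced from granulosa cells, which line the follicle around the egg cell, cut by laser from sections of mouse ovaries and amplified with the Smart-seq2 method. The cKO group (n = 2 libraries) came from females carrying loxP-flanked Hif1a alleles and Foxl2-CreERT2, a Cre recombinase that tamoxifen activates and that is expressed under the granulosa cell gene Foxl2. The WT group (n = 6 libraries) came from females with the same flanked alleles and no Cre. Per the design text, mice were given tamoxifen at 100 mg/kg daily for 5 days from the age of 3 weeks, and the ovaries were taken 7 days after dosing ended. The submitters also describe the cKO samples as a knockdown. Library names in the sample descriptions begin with cKO for all 8 samples, so the group rests on the titles and genotype labels. No label ties a library to an animal, so p-values measure the spread between these libraries, which may be technical.

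Cholesterol is built from acetyl-CoA. Early enzymes make mevalonate and then the isoprenoid farnesyl diphosphate, squalene synthase commits this to sterols, and later enzymes close and trim the rings. When membrane cholesterol is low, SCAP escorts the membrane-bound factor SREBP2 to the Golgi, where it is cut and freed to switch on synthesis genes. INSIG proteins hold SCAP back when sterols are plentiful, and oxysterols activate LXR, which raises export through the pump ABCA1. In the ovary, cholesterol is the raw material of progesterone, androgen and estradiol, and granulosa cells take much of it from lipoproteins.

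Depth lay between 651426 and 2054584 reads on named genes in cKO and between 1594803 and 4719293 in WT. Hif1a, the deleted gene, had 22.3 and 13.7 CPM in the cKO libraries, against 35.5 to 106.2 CPM across WT libraries, for a log2 ratio of -1.84 ± 0.58 (SE; edgeR, adjusted p = 0.369), which was -0.32 with detected genes as a covariate and -0.97 in the libraries numbered 1 and 2 of each group alone. Values here are CPM, read counts scaled to a common library size with TMM, and a log2 ratio is cKO over WT. Some library traits differed between the groups. Genes with 5 or more reads numbered 12847 and 12120 in cKO and at least 13597 in WT, and the mitochondrial genome took 8.87% and 10.5% of reads in cKO and at most 3.65% in WT (exact two-sided permutation p = 0.0357 for each, the smallest that 28 splits allow, adjusted p = 0.119 over 10 measures). All 9 granulosa markers had reads in both groups, and their summed share was 0.401% and 0.143% of reads in cKO and from 0.316% to 5.06% in WT, with WT replicate 1 the lowest of WT (exact permutation p = 0.179). Inha had the highest level of the 9 in every library, so it weighs most in this sum. Single markers differed. Amh reached 610 CPM in cKO replicate 1 and 224 CPM in cKO replicate 2. Its level was above both in WT replicates 1 and 2, and at most 175.7 CPM in WT replicates 3 to 6. Foxl2 overlapped between the groups, while Fshr was lower in both cKO libraries than in any WT library. What this sum says about granulosa cell content was not tested. The summed shares of theca (4 markers), stroma (8), endothelial (6), oocyte (8) and red blood cell (4) markers overlapped between the groups, with an exact permutation p of at least 0.393. The oocyte share was 0.00501% and 0.00307% in cKO. In WT it reached 0.171% in replicate 6, and in replicates 3 to 5 it was at most 0.00159%, below both cKO libraries. Macrophage and leukocyte markers (7) took 0.00521% and 0.00384% of reads in cKO and at most 0.0032% in WT (exact permutation p = 0.0357, adjusted p = 0.119). Single markers of this list differed too, at low levels (3 reads are 4.10 CPM in cKO replicate 2). C1qb had 0 and 1.37 CPM in cKO and up to 11.5 CPM in WT. Only Lyz2 was higher in both cKO libraries than in any WT library, at 2.03 and 5.46 CPM against at most 1.59 CPM. The part of these traits in the results below was not tested. Fits with detected genes as a covariate are given, but that count did not overlap between the groups. Such fits therefore cannot separate it from group.

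All 18 synthesis enzymes had a lower estimate in cKO than in WT, with a median log2 ratio of -1.0 over the 18 genes, against -0.08 over all genes tested. The estimate was below 0 in 52.7% of all genes and above 0 in 47.3%, and of the 30 genes it was below 0 in 27 and above 0 in 3. With DESeq2's size factors 17 of the 18 were lower and Lss turned to 0.0088, while the median over all genes was 0.05, so the median of the synthesis genes lay 0.92 below that of all genes with TMM and 0.97 below it with those factors. No gene of the whole table passed an adjusted p under 0.05 in edgeR's quasi-likelihood test (0% of 15102, with 12.3% at an unadjusted p under 0.05), so none of the 30 is called. At an unadjusted p under 0.05 there were 5 of 30, all lower: Msmo1, Srebf2, Acat2, Mvk and Fdft1 (16.7%, against 8.89% of all genes lower and 3.4% higher at that level). DESeq2 gave an adjusted p to 25 of the 30 and called none, while it called 3.47% of the 7757 genes it gave one. Without a filter on low counts, edgeR called 478 of 25322 genes, among them Acat2 (adjusted p = 0.0237) and Msmo1 (adjusted p = 0.0344). The groups did not overlap in 4 of the 30 that were lower (13.3%, against 6.41% of all genes), namely Hmgcs1, Mvk, Msmo1 and Srebf2. In bulk libraries such as these, fewer cells of a type and less RNA per cell cannot be told apart.

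The summed level of the 18 synthesis genes was 673 and 448 CPM in cKO replicates 1 and 2, against 567, 1205, 904, 1643, 1518 and 1380.5 CPM in WT replicates 1 to 6. WT replicate 1 lay between both cKO libraries, and the other WT libraries lay above them. WT replicates 1 and 2 also had the lowest granulosa marker shares of WT, 0.316% and 0.595% of reads, and WT replicate 2 had a higher synthesis sum than WT replicate 3, with 1.95%. With detected genes as a covariate, 10 of the 18 were lower, and the median was -0.33 for the synthesis genes and -0.26 for all genes. In the libraries numbered 1 and 2 of each group alone, 15 of the 18 were lower and the median was -0.47. Without cKO replicate 2, the shallowest library, the median was -0.69 for the synthesis genes and -0.28 for all genes, so the synthesis genes lay 0.412 lower. Without cKO replicate 1 it was -1.34, against -0.21 for all genes.

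**Figure D1:**
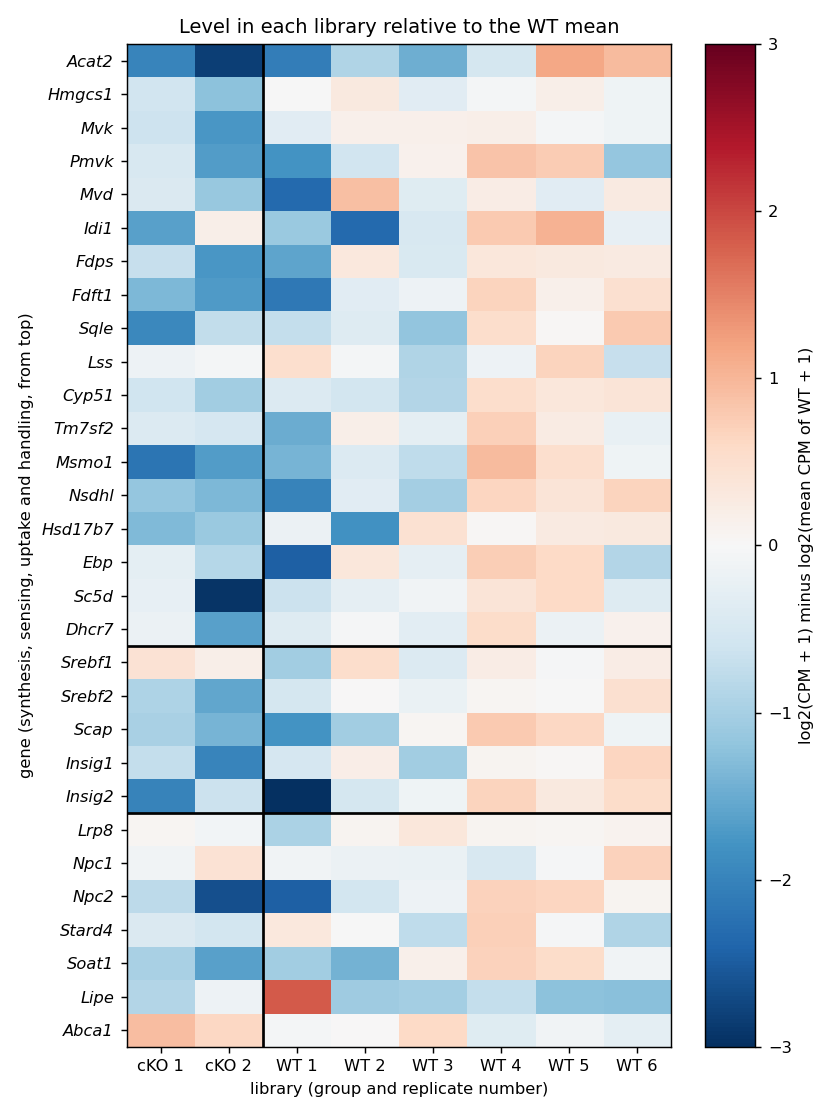
Level of each of the 30 genes (rows, in pathway order) in each library (columns, 2 cKO left of 6 WT), as log2(CPM + 1) minus that of the mean CPM of WT. The synthesis rows are mostly blue (lower) in both cKO columns and in WT replicate 1, and Lipe stands out in WT replicate 1 at 419.8 CPM.

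The steps up to farnesyl diphosphate include Acat2, Hmgcs1, Mvk, Pmvk, Mvd, Idi1 and Fdps. Acat2, the cytosolic thiolase that joins acetyl-CoA units, had the lowest estimate of the 30. Its cKO levels were 10.7 and 5.46 CPM, while WT libraries had a lowest, median and highest of 9.89, 27.1 and 101.2 CPM. WT replicates 5 and 6 were the highest, and WT replicate 1 lay within the cKO range. The means were 8.06 ± 3.67 CPM over the 2 cKO libraries, against 44.7 ± 39.3 CPM over the 6 WT libraries (SD), for a log2 ratio of -2.41 ± 0.94 (SE; edgeR, adjusted p = 0.375). Acat2 rested on 21 and 4 reads in the cKO libraries, so its value in replicate 2 is close to the limit of 3 reads there, 4.10 CPM. The estimate was -0.44 with detected genes as a covariate, -0.96 in the libraries numbered 1 and 2, and -3.03 without cKO replicate 1.

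Hmgcs1 encodes the cytosolic synthase that makes HMG-CoA. It had 53.8 and 34.1 CPM in cKO, while WT libraries had a lowest, median and highest of 64.3, 78.8 and 99.5 CPM. Every WT library lay above both cKO libraries. The log2 ratio was -0.87 ± 0.41 (SE, edgeR adjusted p = 0.409), and -0.42 with detected genes as a covariate. The length the authors deposited for Hmgcs1 ran from 559 to 2365 bases between libraries. Per kb of that length the means were 55.3 ± 57.8 CPM in cKO and 76.6 ± 19.3 CPM in WT (SD). The lack of overlap is therefore stated for CPM only. Mvk, mevalonate kinase, had 48.7 and 21.9 CPM in cKO, while WT libraries had a lowest, median and highest of 59.3, 78.3 and 85.8 CPM. These groups did not overlap either, and the means were 35.3 ± 18.99 CPM in cKO, against 76.0 ± 10.7 CPM in WT (SD), for a log2 ratio of -1.08 ± 0.44 (SE; edgeR, adjusted p = 0.380). It was -1.80 and -0.69 on leaving out cKO replicate 1 or 2.

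The other genes of this stretch overlapped between the groups. Fdps, farnesyl diphosphate synthase, had 214 and 102 CPM in cKO libraries, against 116 to 440.0 CPM across WT libraries, for a log2 ratio of -1.13 ± 0.58 (SE; edgeR, adjusted p = 0.443). It was -1.76 and -0.75 on leaving out cKO replicate 1 or 2, and -0.38 with detected genes as a covariate. Its exons share 1124 annotated bases with Gm43738 on the same strand. Pmvk (phosphomevalonate kinase), Mvd (mevalonate diphosphate decarboxylase) and Idi1 (isopentenyl diphosphate isomerase) had log2 ratios of -0.99 ± 0.83, -0.75 ± 0.70 and -0.55 ± 0.93 (SE), and for each of them the lowest library was a WT library. Pmvk rested on 4 reads in cKO replicate 2, and with 1 library left out it lay between -1.85 and -0.60, and Mvd between -1.20 and -0.47. Idi1 differed between the cKO libraries, with 5.07 and 20.5 CPM, and its estimate was -1.90 with cKO replicate 2 left out and 0.19 with cKO replicate 1 left out.

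From squalene synthase onward, the gene with the smallest p of all 30 was Msmo1, which encodes the methylsterol monooxygenase that begins removal of the C4 methyl groups of sterols. Msmo1 had 19.8 and 28.7 CPM in cKO, while WT libraries had a lowest, median and highest of 34.6, 77.5 and 181.8 CPM. The groups did not overlap, and WT replicate 1 was the WT library nearest to cKO. The means were 24.2 ± 6.29 CPM in cKO, against 93.3 ± 54.8 CPM in WT (SD), for a log2 ratio of -1.97 ± 0.65 (SE; edgeR, adjusted p = 0.369), and over the fits that left out 1 library it lay between -2.31 and -1.66. DESeq2 gave an adjusted p = 0.073. The estimate was -0.59 with detected genes as a covariate and -1.06 in the libraries numbered 1 and 2 of each group.

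Fdft1 (squalene synthase) had 55.8 and 43.7 CPM in cKO, while WT libraries had a lowest, median and highest of 31.9, 145 and 228 CPM. WT replicate 1 was below both cKO libraries and the other 5 were above them, and its log2 ratio was -1.52 ± 0.63 (SE; edgeR, adjusted p = 0.380), with -0.93 when detected genes were a covariate and -0.47 in the libraries numbered 1 and 2. Smart-seq2 reads do not record the strand, so reads of overlapping genes cannot be told apart. Of the annotated exonic bases of Fdft1, 774 overlap Ctsb, the cathepsin B gene, on the opposite strand. Other genes of the set share exonic bases with another gene too. They include Scap (985), Hmgcs1 (557), Tm7sf2 (532, with Vps51 on the same strand) and Npc1 (511, with Rmc1). Lss (381), Idi1 (323), Cyp51 (166, with Akap9) and Srebf1 (109, with Rai1) do as well. Sqle, squalene epoxidase, had 13.7 and 32.8 CPM in cKO, while WT libraries had a lowest, median and highest of 23.8, 49.1 and 95.6 CPM, for a log2 ratio of -1.29 ± 0.62 (SE; edgeR, adjusted p = 0.421). It was -2.07 with cKO replicate 2 left out and -0.75 with cKO replicate 1 left out. Cyp51, lanosterol demethylase, had 28.4 and 20.5 CPM in cKO, while WT libraries had a lowest, median and highest of 23.4, 44.1 and 63.3 CPM, with WT replicate 3 within the cKO range, and a log2 ratio of -0.82 ± 0.53 (SE; edgeR, adjusted p = 0.527).

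**Figure D2:**
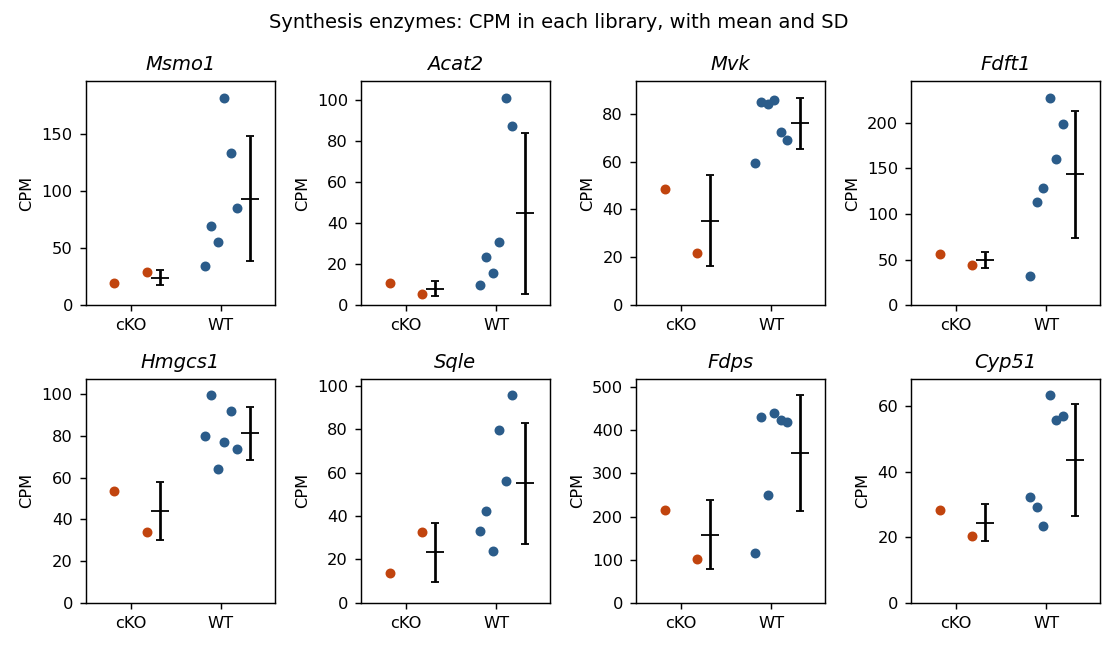
CPM of 8 synthesis genes in each library, cKO (2 points) left of WT (6 points, in order of replicate number), with the mean as a dash and the SD as a bar. Msmo1, Mvk and Hmgcs1 do not overlap between the groups, while in Fdft1 the lowest point is WT replicate 1 at 31.9 CPM.

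Nsdhl, the sterol dehydrogenase that works after Msmo1, and Hsd17b7, the reductase that completes the step, had log2 ratios of -1.32 ± 0.75 and -1.30 ± 0.72 (SE). Sc5d (sterol desaturase), Dhcr7 (the reductase that makes cholesterol from its last precursor in one branch), Ebp (sterol isomerase) and Tm7sf2 (sterol C14 reductase) had -1.01 ± 0.65, -0.72 ± 0.50, -0.55 ± 0.70 and -0.48 ± 0.56 (SE). Sc5d had 31.97 CPM in cKO replicate 1 and 4.10 CPM, at the limit of 3 reads, in cKO replicate 2, so its estimate was -0.33 without the second and -3.21 without the first, and its size is uncertain. Dhcr7 likewise moved between -0.25 and -1.69. Lss, the cyclase that folds squalene epoxide into the first sterol, had 27.9 and 30.1 CPM in cKO libraries, against 16.4 to 50.0 CPM across WT libraries, for a log2 ratio of -0.11 ± 0.53 (SE; edgeR, adjusted p = 0.946). Of all 18 enzymes Lss had the estimate nearest to 0.

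No synthesis gene had its highest level in a cKO library, against 29.9% of all genes tested, while 9 of the 18 had their lowest there, against 40.0% of all genes. WT replicate 4 was the highest library for 9 of the 18, and for 1432 of all 15102 genes tested. WT replicate 1 was the lowest library for 6 of the 18, and for 1798 of all genes tested. Among the 18 it lay below both cKO libraries in Pmvk, Mvd, Fdft1, Tm7sf2, Nsdhl and Ebp. These counts describe the libraries and carry no test.

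Sequences of promoters are shown for the synthesis genes and the regulator gene that did not overlap between the groups. Acat2, which overlapped but had a smaller p than Mvk and Hmgcs1, is not shown. They are the 250 bases before the start site in RefSeq on GRCm38.p6, 5′ to 3′ on the gene's strand. Capitals mark the CCAAT box (CCAAT, or ATTGG on the other strand), the site of NF-Y, a factor known to work beside SREBP2 at such promoters, and matches to TCACNCCAC, the core of the sterol regulatory element, on either strand.
Msmo1, chr8:64733579-64733828, minus strand: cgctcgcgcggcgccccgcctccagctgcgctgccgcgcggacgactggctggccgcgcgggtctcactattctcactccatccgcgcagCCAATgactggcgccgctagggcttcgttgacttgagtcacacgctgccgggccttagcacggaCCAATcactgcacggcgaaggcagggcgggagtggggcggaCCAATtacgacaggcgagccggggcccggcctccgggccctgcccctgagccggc
Mvk, chr5:114444019-114444268, plus strand: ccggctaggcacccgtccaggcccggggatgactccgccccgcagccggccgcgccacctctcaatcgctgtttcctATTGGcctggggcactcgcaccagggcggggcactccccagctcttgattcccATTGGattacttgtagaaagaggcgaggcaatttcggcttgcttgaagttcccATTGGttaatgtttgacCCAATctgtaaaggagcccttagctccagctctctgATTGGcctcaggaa
Hmgcs1, chr13:119690101-119690350, plus strand: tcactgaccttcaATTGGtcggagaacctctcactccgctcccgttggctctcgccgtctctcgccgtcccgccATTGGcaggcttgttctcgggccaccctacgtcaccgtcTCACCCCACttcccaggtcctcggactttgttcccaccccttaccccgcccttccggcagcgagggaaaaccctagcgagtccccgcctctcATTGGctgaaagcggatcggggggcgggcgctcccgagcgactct
Srebf2, chr15:82147019-82147268, plus strand: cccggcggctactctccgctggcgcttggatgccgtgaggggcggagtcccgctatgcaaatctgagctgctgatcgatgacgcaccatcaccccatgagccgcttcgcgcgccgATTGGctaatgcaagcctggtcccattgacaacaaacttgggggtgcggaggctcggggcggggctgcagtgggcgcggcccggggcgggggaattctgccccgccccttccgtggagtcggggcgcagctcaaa

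Full windows ran from 250 bases before to 50 after a start site. In these the CCAAT box lay in 14 of the 15 synthesis genes with a window, all but Acat2. It lay in 20 of the 25 genes of the set with a window, against 42.6% of the 11142 tested genes with one. TCACNCCAC matched 1 of the 25, Hmgcs1, at position -137 from the start site, against 1.45% of tested genes. ACGTG (or CACGT), the core of the element that HIF1 binds, matched 7 of the 25, Abca1, Dhcr7, Hsd17b7, Insig1, Lipe, Sc5d and Scap, against 27.7% of tested genes. The letters CACGTG hold it on both strands, and some genes have several windows. Such matches describe letters in these windows and show no binding.

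Among the sensing genes, Srebf2 was lower in every cKO library than in any WT library and Srebf1 was not. Srebf2 (chromosome 15, 82147181 to 82205379) encodes SREBP2, the factor that mainly drives cholesterol synthesis. It had 44.7 and 28.7 CPM in cKO, while WT libraries had a lowest, median and highest of 59.9, 86.4 and 120.5 CPM. The means were 36.7 ± 11.3 CPM over the 2 cKO libraries, against 86.4 ± 20.1 CPM over the 6 WT libraries (SD), for a log2 ratio of -1.22 ± 0.44 (SE), with adjusted p = 0.369 by edgeR and 0.0996 by DESeq2. The estimate was -1.02 with detected genes as a covariate and -0.94 in the libraries numbered 1 and 2, and it stayed between -1.59 and -1.01 with any library left out. Srebf1 encodes SREBP1, which mainly drives fatty acid synthesis. It had 79.7 and 66.9 CPM in cKO, while WT libraries had a lowest, median and highest of 28.0, 62.9 and 85.6 CPM, so both cKO libraries lay inside the WT range, with a log2 ratio of 0.32 ± 0.45 (SE; edgeR, adjusted p = 0.790). The difference between both genes was not tested.

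Scap, which encodes the SREBP escort and sterol sensor, had 219.7 and 165 CPM in cKO, while WT libraries had a lowest, median and highest of 125, 425 and 750.4 CPM. WT replicates 1 and 2 lay below cKO replicate 1, and WT replicates 3 to 6 lay above both cKO libraries. The log2 ratio was -1.17 ± 0.66 (SE, edgeR adjusted p = 0.475), and it turned to 0.25 in the libraries numbered 1 and 2 and to 0.29 with detected genes as a covariate. Insig1 had 17.8 and 6.83 CPM in cKO, while WT libraries had a lowest, median and highest of 14.0, 31.1 and 47.4 CPM, with WT replicate 3 within the cKO range and a log2 ratio of -1.23 ± 0.62 (SE; edgeR, adjusted p = 0.437). It rested on 5 reads in cKO replicate 2, and was -2.13 and -0.81 on leaving out cKO replicate 1 or 2. Insig2 encodes the second sterol-dependent retention protein and is known in mouse liver as a gene that HIF factors induce. It rested on 3 and 4 reads in cKO replicates 1 and 2, or 1.52 and 5.46 CPM, and had 0 reads in WT replicate 1 (limit of 3 reads, 1.65 CPM) and between 6.01 and 15.0 CPM in the remaining WT libraries. Its log2 ratio of -1.48 ± 1.30 (SE, edgeR adjusted p = 0.646) had the largest error of the 30, and a difference in Insig2 was not detectable at this depth. The median of the 5 sensing genes was -1.22, and it turned to 0.23 in the libraries numbered 1 and 2. That value is the estimate of Insig2 itself in those libraries. Srebf1 (0.44) and Scap (0.25) were also above 0 there, and Srebf2 (-0.94) and Insig1 (-1.08) were below 0.

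**Figure D3:**
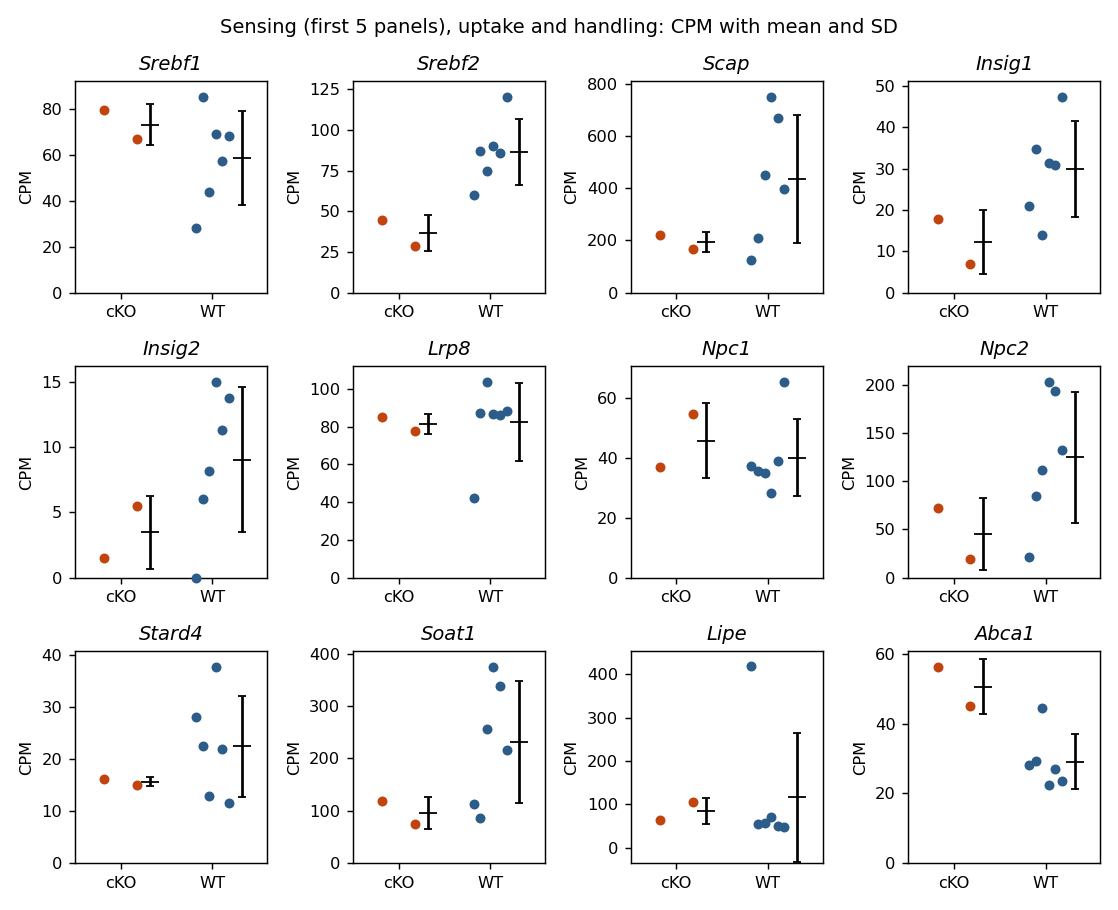
CPM of the 5 sensing and 7 uptake and handling genes in each library, cKO (2 points) left of WT (6 points, in order of replicate number), with the mean as a dash and the SD as a bar. Srebf2 lies lower and Abca1 higher in cKO without overlap, and the Lipe bar in WT rests on the point at 419.8 CPM.

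Uptake and handling genes did not share a direction. Abca1 (chromosome 4, 53030787 to 53159895), the pump that exports cholesterol to apolipoproteins and a known target of LXR, was the only one of the 30 genes higher in cKO with no overlap, where 6.02% of all genes were. It had 56.3 and 45.1 CPM in cKO, while WT libraries had a lowest, median and highest of 22.5, 27.5 and 44.5 CPM, and WT replicate 3 came within 1 CPM of cKO replicate 2. The means were 50.7 ± 7.96 CPM in cKO, against 29.1 ± 7.95 CPM in WT (SD), for a log2 ratio of 0.81 ± 0.43 (SE; edgeR, adjusted p = 0.451). The estimate of Abca1 was above 0 in every alternative run, between 0.63 and 1.05 with any library left out and at 0.48 with detected genes as a covariate.

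Genes for intake and for traffic out of the lysosome differed among themselves. Lrp8, a lipoprotein and reelin receptor, had 85.3 and 77.9 CPM in cKO, while WT libraries had a lowest, median and highest of 42.3, 86.9 and 103.7 CPM, for a log2 ratio of -0.01 ± 0.41 (SE; edgeR, adjusted p = 0.994) whose sign depends on the scaling. Apart from WT replicate 1, the other 7 libraries lay between 77.9 and 103.7 CPM. Npc1 and Npc2 encode the membrane and the soluble partner that hand cholesterol out of the lysosome. Npc1 had 37.0 and 54.6 CPM in cKO, while WT libraries had a lowest, median and highest of 28.3, 36.5 and 65.5 CPM, for a log2 ratio of 0.18 ± 0.45 (SE; edgeR, adjusted p = 0.894), with both cKO libraries inside the WT range. Npc2 had 72.1 and 19.1 CPM in cKO, while WT libraries had a lowest, median and highest of 22.0, 122 and 203 CPM, for a log2 ratio of -1.42 ± 0.74 (SE; edgeR, adjusted p = 0.444), and it was -2.70 with cKO replicate 1 left out and -0.86 with cKO replicate 2 left out. It turned to 0.33 with detected genes as a covariate.

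Stard4, a soluble carrier of sterols between membranes, had 16.2 and 15.0 CPM in cKO, while WT libraries had a lowest, median and highest of 11.6, 22.2 and 37.7 CPM, for a log2 ratio of -0.52 ± 0.61 (SE; edgeR, adjusted p = 0.740). Soat1, which esterifies cholesterol for storage, had 118 and 73.8 CPM in cKO, while WT libraries had a lowest, median and highest of 86.1, 236 and 374 CPM. WT replicates 1 and 2 lay within the cKO range and WT replicates 3 to 6 above it, with a log2 ratio of -1.26 ± 0.60 (SE; edgeR, adjusted p = 0.417) that was -0.02 in the libraries numbered 1 and 2. Lipe, hormone-sensitive lipase, which frees stored cholesterol from its esters, had 62.9 and 105 CPM in cKO, while WT replicate 1 had 419.8 CPM and the other 5 WT libraries 48.7 to 70.8 CPM. Its log2 ratio was -0.48 ± 0.83 (SE; edgeR, adjusted p = 0.833), and without WT replicate 1 it turned to 0.57. Exons of Lipe share 918 bases with the antisense gene 4732471J01Rik. The median of the 7 genes was -0.48, and without WT replicate 1 it was -0.15.

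**Figure D4:**
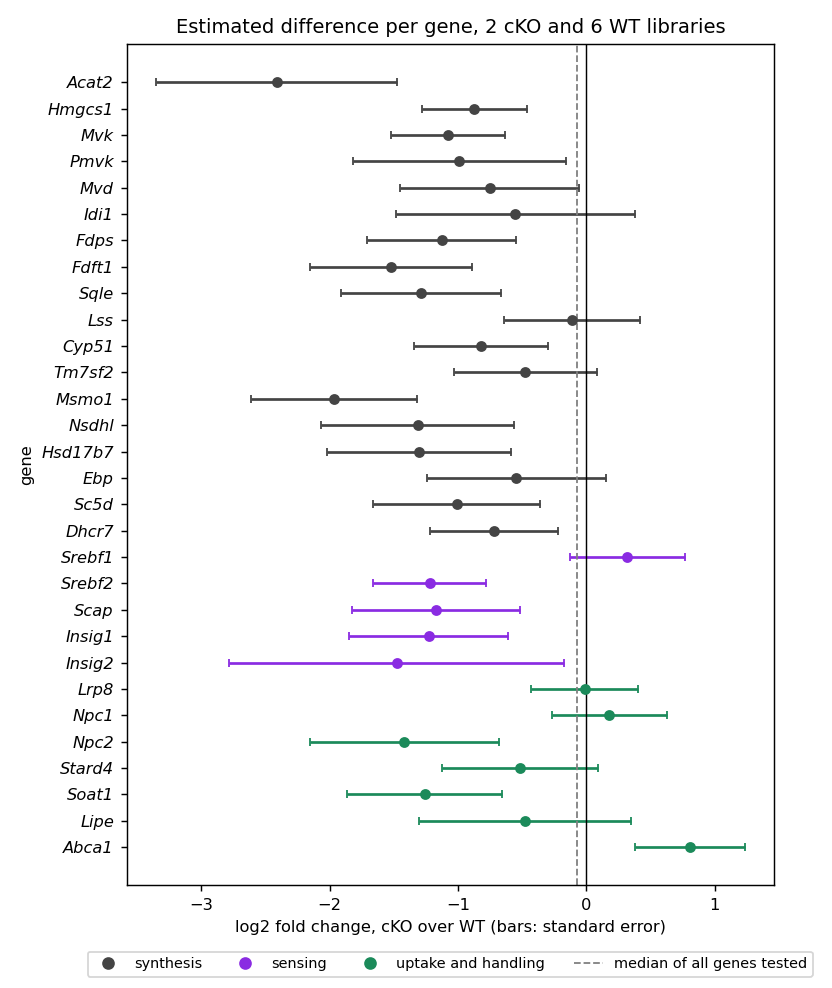
Log2 ratio (fold change on the log2 scale), cKO over WT, of each gene (points, coloured by role) with its standard error (bars), against 0 (solid line) and the median of all genes tested at -0.08 (dashed line). All 18 synthesis points lie below 0, from -2.41 to -0.11, while the uptake and handling points range from -1.42 to 0.81.

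**Figure D5:**
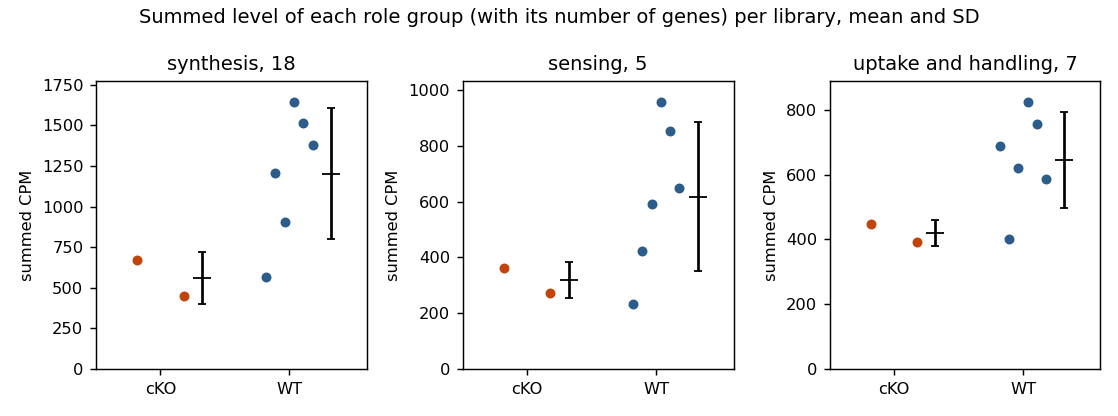
Summed CPM of the synthesis, sensing, and uptake and handling genes in each library, cKO (2 points) left of WT (6 points, in order of replicate number), with the mean as a dash and the SD as a bar. In synthesis the cKO points are 673 and 448 CPM and the lowest WT point, replicate 1, is 567 CPM.

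Summed levels of the other roles overlapped too. The 5 sensing genes summed to 363 and 273 CPM in cKO libraries, against 234 to 956 CPM across WT libraries. The 7 uptake and handling genes summed to 448 and 391 CPM in cKO libraries, against 401 to 823 CPM across WT libraries, where WT replicate 2 was the lowest. In the plot of summed levels WT replicate 1 is the lowest WT point for synthesis and for sensing, but not for uptake and handling, where Lipe alone gave 419.8 of its 690 CPM.

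Levels of different genes were compared per length, on 2 scales, because the lengths the authors deposited are far shorter than annotated transcripts for most of the genes and vary between libraries (205 to 231 bases for Fdps, against 1382 for its longest principal transcript in GENCODE M21), and which transcripts they describe is not known. Fdps was the highest in WT on both scales, at 115 ± 57.2 CPM per annotated kb in cKO and 251 ± 96.8 in WT, and at 752 ± 376.5 CPM per deposited kb in cKO and 1634 ± 660.2 in WT. Scap came next in WT on both, at 45.5 ± 9.11 CPM per annotated kb in cKO and 103 ± 58.1 in WT, and at 362 ± 73.4 CPM per deposited kb in cKO and 833 ± 479 in WT. Abca1 was the lowest in WT on both, at 4.94 ± 0.775 CPM per annotated kb in cKO and 2.84 ± 0.775 in WT, and at 9.88 ± 1.55 CPM per deposited kb in cKO and 5.68 ± 1.55 in WT. The order of genes between these depends on which lengths are used and is not given.

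Further genes of the pathway were described by 7 lists, none of which had a member past the adjusted threshold in edgeR. Of 9 genes of SREBP processing and sterol-regulated degradation, 7 were lower and 2 higher, and the median was -1.03. In edgeR 4 had an unadjusted p under 0.05, all lower (44.4%, against 8.89% of all genes). Erlin1, which encodes an endoplasmic reticulum scaffold of sterol-regulated degradation, had 14.2 and 5.46 CPM in cKO libraries, against 17.6 to 46.5 CPM across WT libraries, for a log2 ratio of -1.67 ± 0.59 (SE; edgeR, adjusted p = 0.369), which rests on 4 reads in cKO replicate 2 and was -2.58 without cKO replicate 1.

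Of 10 fatty acid synthesis genes, known targets of SREBP1, 8 were lower and 2 higher, with a median of -1.53. In edgeR 4 lower (40.0%, against 8.89% of all genes) and 1 higher (against 3.4%) had an unadjusted p under 0.05. Fads1, a fatty acid desaturase, had 43.1 and 9.56 CPM in cKO libraries, against 50.6 to 140.7 CPM across WT libraries, for a log2 ratio of -1.82 ± 0.61 (SE; edgeR, adjusted p = 0.369). It was -3.33 and -1.23 on leaving out cKO replicate 1 or 2, and -0.63 with detected genes as a covariate. Me1, malic enzyme, had 17.3 and 15.0 CPM in cKO libraries, against 7.69 to 196 CPM across WT libraries, for a log2 ratio of -2.59 ± 0.94 (SE; edgeR, adjusted p = 0.369), and -0.62 in the libraries numbered 1 and 2 and -0.66 with that covariate. After their values were seen, Elovl6 and Acss2 were added. Elovl6, an elongase of long fatty acids, had 15.2 and 10.9 CPM in cKO libraries, against 9.84 to 243 CPM across WT libraries, where replicates 1 and 2 had at most 18.7 CPM. Its log2 ratio was -3.23 ± 1.19 (SE, edgeR adjusted p = 0.369, DESeq2 adjusted p = 0.0392), and -0.09 in the libraries numbered 1 and 2. Acss2, which makes acetyl-CoA from acetate, had 29.4 and 15.0 CPM in cKO libraries, against 1.56 to 10.7 CPM across WT libraries, without overlap, and a log2 ratio of 1.66 ± 0.72 (SE; edgeR, adjusted p = 0.386) that was 1.082 without cKO replicate 1.

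Genes of LXR and sterol efflux (7 tested of 8) lay the other way, with 1 lower and 6 higher, a median of 0.38, and none at an unadjusted p under 0.05. Nr1h3, which encodes LXR alpha, had 18.3 and 2.73 CPM in cKO libraries, against 0 to 5.08 CPM across WT libraries, for a log2 ratio of 1.89 ± 1.27 (SE; edgeR, adjusted p = 0.546) that was -0.07 without cKO replicate 1. Nr1h2, LXR beta, had -0.41 ± 0.40 (SE), and from -0.91 to -0.11 with 1 library left out. Ch25h had no read in any library and was not tested. Among 12 genes of sterol transport and lipoprotein uptake, 5 were lower and 7 higher with a median of 0.19. Osbp, an oxysterol-binding carrier at the Golgi, had a lower estimate with no overlap (-1.48 ± 0.53, SE, and -2.30 without cKO replicate 1), and Gramd1c, a sterol carrier at membrane contacts, had 7.61 and 32.8 CPM in cKO libraries, against 2.49 to 10.99 CPM across WT libraries.

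The remaining lists were mixed. Isoprenoid branch genes had a median of -0.22 with 6 of 8 lower, led by Dhdds (-0.91 ± 0.51, SE) and Fnta (-1.02 ± 0.71, SE), which act in dolichol synthesis and protein prenylation. Of 6 genes that use cholesterol for steroids, 3 were lower and 3 higher. In edgeR 2 had an unadjusted p under 0.05, both lower (33.3%, against 8.89% of all genes). Hsd3b1, which acts in progesterone synthesis, had 616 and 202 CPM in cKO libraries, against 277 to 12761 CPM across WT libraries. WT replicates 1 and 2 had 277 and 684 CPM, and WT replicates 3 to 6 at least 2026 CPM. The log2 ratio of Hsd3b1 was -3.58 ± 1.38 (SE; edgeR, adjusted p = 0.374). It was -0.18 in the libraries numbered 1 and 2 and -0.69 with detected genes as a covariate. Tspo, a protein of the outer mitochondrial membrane, had 48.2 and 8.20 CPM in cKO and a log2 ratio of -1.54 ± 0.70 (SE) that was -3.38 and -0.88 on leaving out cKO replicate 1 or 2. Lipid droplet and ester genes (6 tested of 7) had 4 lower and a median of -0.77. Plin2, a coat protein of lipid droplets, had 12.2 and 1.37 CPM in cKO libraries, against 13.2 to 64.1 CPM across WT libraries, for a log2 ratio of -2.15 ± 0.79 (SE; edgeR, adjusted p = 0.369). Its level in cKO replicate 2 is 1 read, below the limit of 3 reads, and the estimate was -4.57 and -1.52 on leaving out cKO replicate 1 or 2 and -0.40 with detected genes as a covariate. Pnpla2, a lipase, had -0.80 ± 0.54 (SE).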

How the data were processed

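Each library has a Salmon table, deposited by the authors, that gives lengths, TPM and estimated counts by gene name. In 1548 of 36635 rows only a transcript identifier stands, and these rows, 0.435% to 0.739% of reads, were not tested. HISAT2, Salmon and mm10 are named in the submitters' processing notes; which annotation was used is not stated there. Deposited TPM is per effective length, and those lengths vary between libraries, so TPM served only as an alternative.

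Estimated counts were rounded, filtered with filterByExpr (minimum count 10, total 15), scaled by TMM and compared with edgeR 4.0.16 (glmQLFit, glmQLFTest, group only) in R 4.3.3, with Benjamini-Hochberg adjustment over 15102 genes and a threshold of 0.05. The common biological coefficient of variation was 0.699. Marker shares were compared by exact permutation. A count of 3 reads was taken as the limit for a gene with none, and such limits cover counting error only, as reads carry no molecular identifiers. Over the 28 pairs of libraries none agreed within sampling noise (chi-square per degree of freedom at least 14.1). The procedure was tested on simulated counts of 15102 genes for cKO against WT: 20% of 100 genes changed 4-fold and 69% of 100 changed 16-fold were called, with 7 false calls.

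The members, lists and tests were chosen with earlier results of these data known. Named are all 30 members, Hif1a, and the 2 genes with the smallest p of each further list, except a gene that is not reported here, with Elovl6 and Acss2 added after their values were seen. DESeq2 1.42.0 and limma 3.58.1 were used for alternatives. Coordinates are from GENCODE M21 on GRCm38, the assembly mm10 denotes. Promoters were found for 25 of the 30 in RefSeq (GRCm38.p6). Some other genes of the pathway were not analysed here.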

Additional observations from a re-analysis of the deposited data

Results flagged for a closer look

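In 4 of 31 genes examined, the 30 and Hif1a, 1 WT library stood far from the other 5 by Dixon's criterion (critical value 0.625 for 6 samples). Chance gives about 1 such case in 20. Lipe was highest in WT replicate 1, at 419.8 CPM against 48.7 to 70.8 CPM in the other WT libraries. Lrp8 was lowest in the same library, at 42.3 CPM against 86.0 to 103.7 CPM. Npc1 was highest in WT replicate 6, at 65.5 CPM against 28.3 to 39.2 CPM. Abca1 was highest in WT replicate 3, at 44.5 CPM against 22.5 to 29.2 CPM. The cKO group, with 2 libraries, was too small for this criterion.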

How the results depend on the processing

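The counts of calls and the sizes of the differences depended on the processing, and the cause was not tested. Genes called numbered 0 of 15102 with edgeR (1855 at an unadjusted p under 0.05). They numbered 478 of 25322 with no filter on low counts and 269 of 7757 with DESeq2. The replicate block gave 1, and limma on log2(TPM + 1), an alternative chosen after seeing the data, gave 5. No call was made with any library left out. Of the 30 genes, 5 had an unadjusted p under 0.05, against 10 with no filter and 9 with DESeq2. There were 0 with the replicate block, with detected genes as a covariate or in the libraries numbered 1 and 2. With 1 WT library left out there were from 3 (without WT replicate 4) to 11 (without WT replicate 1). Such counts over all genes moved too, with 1855 of 15102 in the main run, 3486 of 25322 with no filter and 2209 with DESeq2. They were 179 with the block, 490 with that covariate and 376 in the libraries numbered 1 and 2. Without WT replicate 4 there were 1307, and without WT replicate 1 there were 3090. With detected genes as a covariate 10 of 18 synthesis genes were lower.

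Replicate numbers are shared by 2 libraries of each group only. The fit with the replicate block therefore takes the group difference from the libraries numbered 1 and 2, and is not separate from the run on them. Deviations of same-numbered libraries from their group means had correlations of -0.29 and -0.17 over 15102 genes. With 2 cKO libraries these deviations mirror each other, so the check cannot settle whether the numbers pair libraries. With the replicate block, the median was -0.34 for synthesis, 0.23 for sensing, and -0.075 for uptake and handling. Genes that turned under the block were Pmvk (0.19), Idi1 (1.15), Tm7sf2 (0.21), Ebp (0.50), Scap (0.23), Insig2 (1.01), Lrp8 (0.42) and Fnta (0.45).

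Detected genes did not overlap between the groups, so fits with them as a covariate cannot separate this count from group. With detected genes as a covariate the median was -0.33 for synthesis and 0.19 for uptake and handling. Pmvk (0.97), Idi1 (1.81), Lss (1.17), Cyp51 (0.41), Tm7sf2 (0.17), Ebp (0.65), Sc5d (0.745), Dhcr7 (0.037), Scap (0.29), Npc1 (-0.32), Npc2 (0.33), Stard4 (0.41), Soat1 (0.19), Gramd1c (-0.23) and Dhdds (0.16) then turned. In the libraries numbered 1 and 2, chosen with earlier results known, the median was 0.23 for sensing and -0.017 for uptake and handling, and Pmvk (0.18), Idi1 (1.30), Tm7sf2 (0.029), Scap (0.25), Insig2 (0.23), Lrp8 (0.39) and Fnta (0.20) turned. With limma on log2(TPM + 1) the uptake and handling median was 0.18, and Idi1 (0.14), Cyp51 (0.61), Ebp (0.011), Lrp8 (0.18) and Lipe (0.23) turned. Lss (0.0088 and 0.0077) and Lrp8 (0.12 and 0.12) turned with DESeq2's size factors and with DESeq2.

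With 1 library left out, the uptake and handling median lay between -0.57 and -0.14. Estimates of Idi1 (-1.90 to 0.19), Lss (-0.23 to 0.16), Lrp8 (-0.15 to 0.16), Npc1 (-0.17 to 0.49), Lipe (-0.96 to 0.57) and Nr1h3 (-0.071 to 2.60) included both signs. Over 46 genes examined and 690 values, 633 kept direction and side of the threshold, 50 turned and 7 passed the threshold. Depth limits Plin2, Nr1h3, Sc5d, Acat2, Insig2, Pmvk, Erlin1 and Insig1, with 5 or fewer reads in cKO replicate 2.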
